A study of Mus musculus with 12 samples.

Results

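The pyruvate dehydrogenase genes were examined in liver RNA from insulin-deficient mice of mixed strain background that were given leptin or placebo (PBS) into a brain ventricle (icv). The set held 10 genes: the kinases Pdk1, Pdk2, Pdk3 and Pdk4, the phosphatase Pdp2, the complex subunits Pdha1, Pdhb and Dlat, and the pyruvate carriers Mpc1 and Mpc2. Members were found as every probe of the Illumina Mouse-6 V2 BeadChip whose annotated gene symbol was one of these, which gave 14 probes of 8 genes among 45281 probes. Mpc1 and Mpc2 were not analysed here because no probe was matched to either. A probe was detected on an array when its detection p-value, the chance of so bright a signal among negative control beads, was below 0.01. Probes detected on at least 3 of 12 arrays were tested, which kept 11 probes of 7 of the genes.

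Each group held 6 arrays, numbered 1 to 6. The leptin group received 25 ng in 0.11 µL per hour and its livers were taken on day 10, whereas neither the rate nor the day of the PBS group is stated in the labels. All mice were insulin-deficient, and the labels do not say how the deficiency was made. Every mean below has n = 6 arrays per group, and precision is limited by that number. The labels name each array as a separate sample without tying it to a mouse, so the spread behind each p-value may be technical in part.

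Pyruvate dehydrogenase is the mitochondrial complex that converts pyruvate to acetyl-CoA, and so commits carbohydrate carbon to oxidation or fat synthesis. Pdk kinases switch it off by phosphorylating its E1α subunit, and Pdp phosphatases switch it on again by removing those phosphates. In liver, fasting and insulin deficiency are known to raise Pdk4, which spares pyruvate for glucose production while fatty acids are burned. Fat cells secrete leptin, and its metabolic effects run in large part through neurons.

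Transcripts of 2 members, the kinase Pdk4 and the E1α subunit gene Pdha1, were lower with icv leptin, and no member was higher. At an unadjusted limma p below 0.05, 3 of the 11 member probes were lower, of Pdk4, Pdha1 and Pdk2, and 0 higher. In either direction, 32.1% of all 8819 genes, with 1 probe each, passed that same limit, so this count does not set the members apart. The remaining 9 tested probes did not pass an adjusted p of 0.05 (limma, two-sided, Benjamini-Hochberg over all 15062 kept probes). Of all kept probes, 18.1% were called in either direction, 9.76% lower and 8.31% higher with leptin, so 2 of 11 is close to the share on the whole array. The median log2 difference (leptin minus PBS) was -0.10 over the 11 probes and -0.015 over all kept probes, and 7 of the 11 were below 0. Pdk4 alone had every leptin array below every PBS array, which held for 4.64% of kept probes, with 7.95% not overlapping in either direction.

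**Figure D1:**
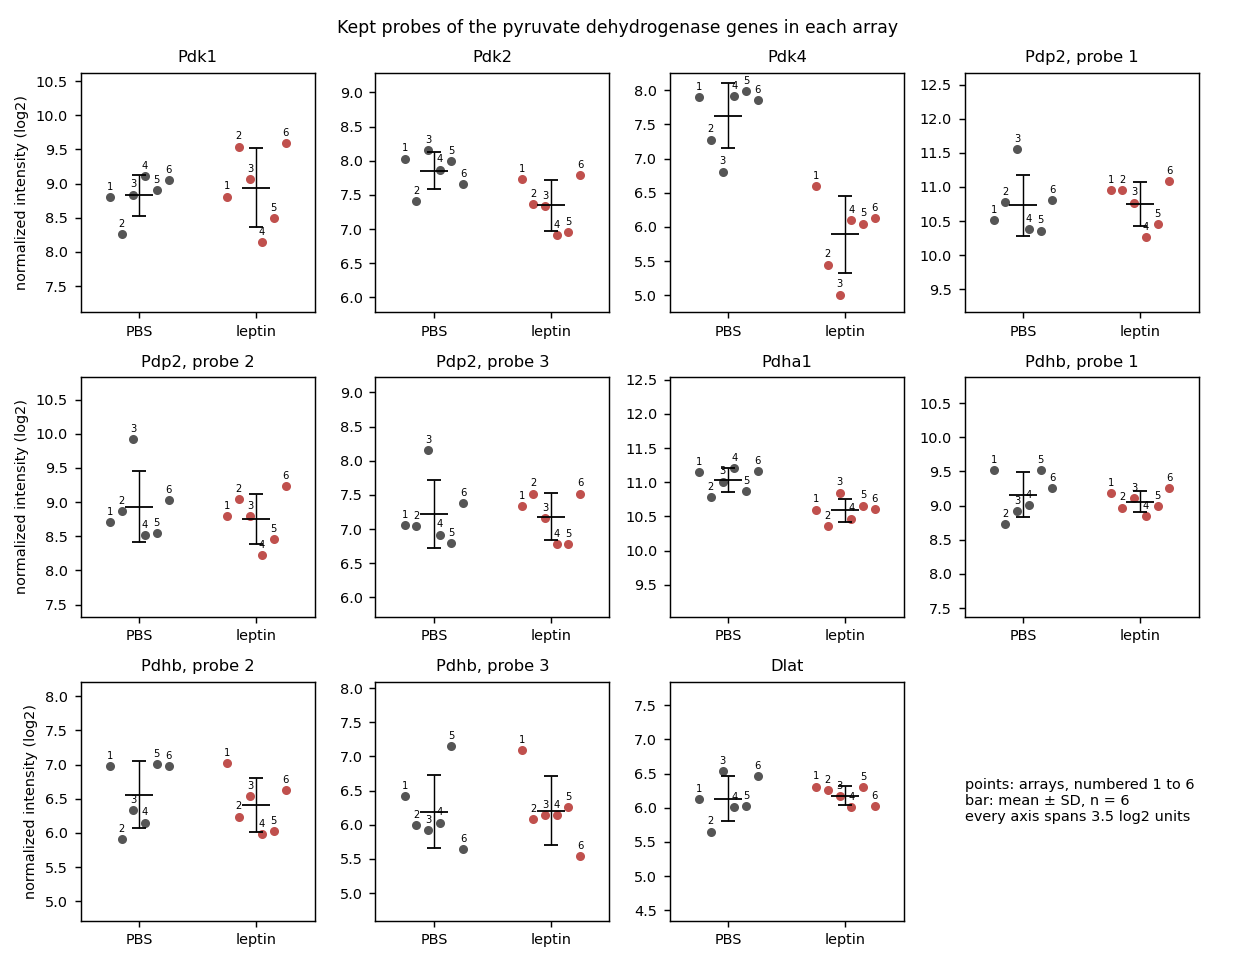
Normalized log2 intensity of each of the 11 kept probes on each array (numbered points), with mean and SD of the 6 arrays per group. Axes all span the same number of log2 units but start at different levels, so levels are not comparable between panels; Pdk4 is the one panel where the groups do not overlap.

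Pdk4 was the member with the greatest difference. Its normalized log2 intensity (probe ILMN_1259322) ran from 6.81 over a median of 7.88 to 7.99 with PBS, and from 5.01 over 6.08 to 6.60 with leptin. The PBS arrays other than 2 and 3 lay close together near the top, PBS 3 was the lowest of its group, and leptin 3 was the lowest of all. The mean fell from 7.62 ± 0.48 (SD) to 5.89 ± 0.56, a log2 difference of -1.73 ± 0.27 (SE, 95% confidence interval -2.31 to -1.16, limma adjusted p = 0.00104). This is a 3.33-fold difference (2.24 to 4.95), and Pdk4 ranked 47 from the lowest among the 15062 kept probes. In deposited signal units, before background correction, Pdk4 ran from 210.4 to 352 with PBS and from 130.5 to 195.2 with leptin. It was detected on 6 PBS arrays and 5 leptin arrays, the exception being leptin 3.

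The size of the Pdk4 difference changed with the treatment of background, and its leptin signals lay not far above the array median of 118.9. The authors' deposited table, made without background subtraction, gave Pdk4 a log2 difference of -0.901 and an unadjusted p of 3.09e-06. With an offset of 50 in place of 16 it was -1.30, and with normexp correction, also at an offset of 50, it was -1.18, both called (limma adjusted p at most 0.00105). Leaving out any 1 array gave -1.90 to -1.56, and the call held each time (limma adjusted p at most 0.00331).

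The 250 bases before the annotated start of Pdk4, where its transcription begins, are shown because its transcript differed most. They lie at chr6:5496279-5496528 on the minus strand (RefSeq, GRCm38.p6). All upstream windows printed here were searched on both strands for 7 motifs: the E-box CACGTG that clock factors bind, a half-site of nuclear receptors (AGGTCA), a variant of that half-site (AGTTCA), a motif of FoxO factors (TGTTTAC), the CCAAT box (CCAAT), the GC box bound by Sp1 (GGGCGG) and the TATA box (TATAAA). Capitals mark matches, read 5′ to 3′ on the gene's strand, so that a CCAAT box on the opposite strand reads as its reverse complement. None of the motif matches in this window overlap.
Pdk4 upstream: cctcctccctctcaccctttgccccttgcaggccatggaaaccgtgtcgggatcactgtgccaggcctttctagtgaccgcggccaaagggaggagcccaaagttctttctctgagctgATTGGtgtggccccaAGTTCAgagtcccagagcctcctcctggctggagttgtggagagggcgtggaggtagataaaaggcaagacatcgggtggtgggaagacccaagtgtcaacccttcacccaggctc
The variant half-site began 116 bases before the start and a reverse CCAAT box 131 bases before it. Among 32851 upstream windows of this length in the RefSeq table, 11.8% held the variant half-site and 33.8% the CCAAT box. The window held no AGGTCA, FoxO motif or E-box, which were in 14.0%, 3.17% and 6.02% of windows, and no TATA box (12.4%). A match is a string of letters in the reference, and no binding was measured.

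Pdk2, the kinase found in most tissues including liver, had lower values with leptin that missed the threshold. Its log2 intensity (ILMN_2737658) ran from 7.41 over 7.93 to 8.15 with PBS and from 6.91 over 7.35 to 7.79 with leptin. Leptin 2, 3, 4 and 5 were below every PBS array, and leptin 1 and 6 lay among the PBS values. The log2 difference was -0.505 ± 0.179 (SE, 95% confidence interval -0.889 to -0.12, limma adjusted p = 0.0647). The limma call was gained without leptin 1 (adjusted p = 0.0482), leptin 6 (0.0387) or PBS 2 (0.0342), at -0.582, -0.593 and -0.594. Without any other 1 array Pdk2 stayed uncalled (limma adjusted p 0.0763 to 0.135), with the smallest difference, -0.417, without leptin 4. In the authors' deposited table the log2 difference of Pdk2 was -0.33 with an unadjusted p of 0.017.

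The upstream window of the first annotated Pdk2 start, at chr11:95041372-95041621 on the minus strand (RefSeq, GRCm38.p6), is shown for comparison with Pdk4, as the other kinase whose interval lay below 0.
Pdk2 upstream: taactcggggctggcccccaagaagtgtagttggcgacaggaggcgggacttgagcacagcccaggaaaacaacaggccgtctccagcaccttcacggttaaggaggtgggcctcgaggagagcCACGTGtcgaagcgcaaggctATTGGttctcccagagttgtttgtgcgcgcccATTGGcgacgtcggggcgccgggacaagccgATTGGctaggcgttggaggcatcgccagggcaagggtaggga
It held an E-box at 126 bases before the start and reverse CCAAT boxes at 105, 73 and 42 bases before it, and neither nuclear receptor half-site.

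Pdk1, the kinase best known as a target of the hypoxia factor HIF-1, was not lower. Its log2 intensity (ILMN_1229318) ran from 8.26 over 8.87 to 9.11 with PBS and from 8.14 over 8.94 to 9.59 with leptin. Leptin 2 and 6 were above every PBS array and leptin 4 was below every one. The log2 difference was 0.11 ± 0.24 (SE, 95% confidence interval -0.40 to 0.62, limma adjusted p = 0.788). The second Pdk1 probe (ILMN_1247533) was detected on 0 of 12 arrays, with signals from 110.1 to 121. The single Pdk3 probe (ILMN_2676876), for a kinase known mainly from testis and brain, was also detected on 0 arrays, with signals from 110.4 to 135.4 and detection p-values from 0.015 to 0.697. Pdk3 therefore had no usable level in either group.

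Pdp2, the phosphatase subunit that reactivates the complex, was read by 4 probes, of which 3 were kept. The brightest, ILMN_3134598, ran from 10.36 over 10.64 to 11.56 with PBS and from 10.27 over 10.86 to 11.09 with leptin. The log2 difference was 0.016 ± 0.207 (SE, 95% confidence interval -0.428 to 0.459, limma adjusted p = 0.97). The other kept probes, ILMN_2477276 and ILMN_3057482, had log2 differences of -0.175 ± 0.234 and -0.043 ± 0.223 (SE, limma adjusted p = 0.643 and 0.921). All 3 probes had the same array on top: PBS 3 stood at 11.56, 9.92 and 8.16, above each of the other 11 arrays. Without PBS 3 the log2 differences were 0.182, 0.0218 and 0.144, so the sign of the latter 2 turned, and none was called. The fourth probe, ILMN_1232249, was detected on 0 arrays, with signals from 114.5 to 134.3.

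The Pdp2 upstream window, at chr8:104591222-104591471 on the plus strand (RefSeq, GRCm38.p6), is shown because its 3 probes were called when the clock gene score described below was a covariate.
Pdp2 upstream: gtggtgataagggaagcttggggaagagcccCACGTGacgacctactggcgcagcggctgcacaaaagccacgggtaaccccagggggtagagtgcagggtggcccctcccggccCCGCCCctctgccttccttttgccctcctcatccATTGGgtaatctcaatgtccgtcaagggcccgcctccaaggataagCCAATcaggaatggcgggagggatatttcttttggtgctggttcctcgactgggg
An E-box began 219 bases before the start. CCAAT boxes lay at 101 bases on the opposite strand and 55 bases on the gene's own, and a reverse GC box at 135 bases, a motif in 32.7% of windows.

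Pdha1, the X-linked E1α subunit that carries the sites phosphorylated by the Pdk kinases, was lower with leptin. Its log2 intensity (ILMN_2679851) ran from 10.78 over 11.08 to 11.21 with PBS and from 10.36 over 10.61 to 10.85 with leptin. The groups overlapped at one point only, where leptin 3 was above PBS 2, and the other 5 leptin arrays were below every PBS array. The mean fell from 11.03 ± 0.18 (SD) to 10.59 ± 0.17, a log2 difference of -0.438 ± 0.117 (SE, 95% confidence interval -0.688 to -0.188, limma adjusted p = 0.0204). Leptin arrays thus held 73.8% of the PBS intensity, against 30.0% for Pdk4. Of kept probes, 11.7% had a lower log2 difference than Pdha1, against 0.305% for Pdk4.

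The Pdha1 call held without any 1 array (limma adjusted p 0.0146 to 0.0473). It was lost when the difference was tested against a minimum fold of 1.2 (limma adjusted p = 0.446) and by the p-values of the authors' deposited table after adjustment (0.0873), where the log2 difference was -0.415. The upstream window, at chrX:160138431-160138680 on the minus strand (RefSeq, GRCm38.p6), is shown as that of the other called member, and it held none of the 7 motifs.
Pdha1 upstream: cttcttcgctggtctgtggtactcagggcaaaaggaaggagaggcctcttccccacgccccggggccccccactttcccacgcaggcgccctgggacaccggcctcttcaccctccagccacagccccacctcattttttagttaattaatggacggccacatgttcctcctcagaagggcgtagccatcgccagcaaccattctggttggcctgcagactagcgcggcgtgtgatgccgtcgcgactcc

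Pdhb, which encodes the E1β partner of Pdha1, had no call on any of its 3 probes. On the brightest, ILMN_3041839, log2 intensity ran from 8.73 over 9.14 to 9.52 with PBS and from 8.85 over 9.05 to 9.25 with leptin. PBS 1, 5 and 6 were above every leptin array and PBS 2 was below every one, so the leptin values lay within the PBS range. The log2 difference was -0.10 ± 0.15 (SE, 95% confidence interval -0.418 to 0.214, limma adjusted p = 0.67). The intervals of ILMN_3116570 (-0.653 to 0.342) and ILMN_1247561 (-0.554 to 0.585) also held 0, and also held the Pdha1 difference. The probes did not rank the arrays alike: leptin 6 was the highest leptin array on ILMN_3041839, at 9.25, and the lowest of all on ILMN_1247561, at 5.54.

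Dlat, the E2 subunit whose lipoyl arm takes up the acetyl group, ran in log2 intensity (ILMN_2757993) from 5.65 over 6.07 to 6.54 with PBS and from 6.01 over 6.22 to 6.31 with leptin. All leptin values lay within the PBS range. The log2 difference was 0.045 ± 0.147 (SE, 95% confidence interval -0.271 to 0.36, limma adjusted p = 0.867). The Dlat interval thus lay above the fitted Pdha1 difference of -0.438, and the Pdhb interval of -0.418 to 0.214 just missed it. The Dlat probe was dim, with signals from 148.6 to 191.6 against 1415.6 to 2473.8 for Pdha1. The offset used here understates differences of dim probes, so the 2 are not on an equal footing. The differences between these subunits were not themselves tested.

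**Figure D2:**
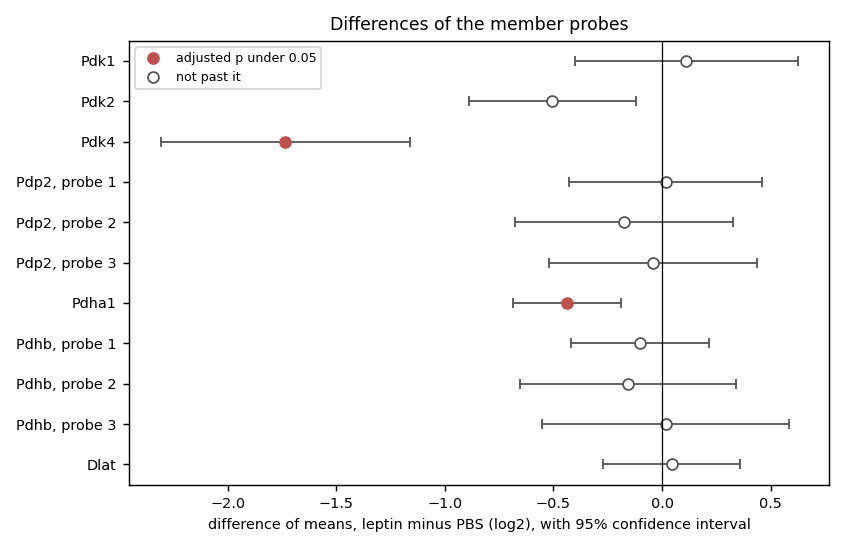
Difference of group means (leptin minus PBS, log2) for the 11 kept probes, with 95% confidence intervals; filled points passed an adjusted p of 0.05. The intervals of Pdk4, Pdha1 and Pdk2 lie below 0, and those of the other 8 probes hold 0.

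Some arrays were the lowest or highest of their group on several member probes. Leptin 4 was the lowest leptin array on 7 of the 11 probes, of Pdk1, Pdk2, Pdhb, Dlat and Pdp2, and was the highest on 0. PBS 2 was the lowest PBS array on 6 probes, of Pdk1, Pdk2, Pdha1, Pdhb and Dlat. PBS 3 was the highest PBS array on 5 probes, of Pdk2, Dlat and Pdp2, yet the lowest for Pdk4. Probes of the same gene were counted separately in these numbers, and are not independent. How often each array was extreme over all kept probes was not counted.

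The arrays of a group were also compared between members. After group means were taken out, Pearson's r with Pdk4 over the 12 arrays was 0.468 for Pdhb, 0.111 for Pdk2, 0.041 for Pdha1, -0.091 for Pdk1, -0.129 for Dlat and -0.497 for Pdp2, with 1 probe a gene. Among 8819 genes the values closest to Pdk4 were those of Prpf4b (0.926), a splicing kinase, Zfp180 (0.873), a zinc finger protein, Dnajb6 (0.866), a co-chaperone, Gin1 (0.856) and Tmem33 (0.852). Of these, Tmem33 was lower with leptin (log2 difference -0.38 ± 0.10, SE, limma adjusted p = 0.023), a call lost without leptin 3 (0.054), by the p-values of the authors' deposited table after adjustment (0.0756), with a minimum fold of 1.2 (0.616) and with the clock score described below (0.534). Gin1, at -0.673 (limma adjusted p = 0.117), was not called, but was called with a replicate block (0.0233), without PBS 3 (0.0279) and without both PBS 3 and leptin 4 (0.0154). Prpf4b was detected on 5 PBS arrays and 3 leptin arrays. These genes were the extremes of 8819 over 12 arrays that share a platform, and the values are a description.

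Clock genes moved with the groups on these arrays. Arntl, which encodes BMAL1, was detected on 5 PBS arrays and 0 leptin arrays, so its fall has only a bound, at least 1.95-fold lower with leptin. Its limma adjusted p of 0.0013 belongs to the fitted difference, and the bound itself was not tested. For this bound each leptin array was given the dimmest detected probe's value, or Arntl's own where that was higher. Its partner Clock fell by a log2 difference of -1.03 ± 0.14 (SE, limma adjusted p = 0.000572). Dbp, a transcription factor driven by them, rose by 2.65 ± 0.53 (limma adjusted p = 0.00465), as did Per1 (0.79) and Nr1d2 (0.65), with 5 of 8 tested genes of that arm not called. A clock score per array, the mean scaled level of Arntl and Clock minus that of the 8 Dbp-arm genes, ran from 1.506 to 2.091 on 5 PBS arrays and was -0.741 on PBS 3. It ran from -2.165 to -1.422 on 5 leptin arrays and was 0.497 on leptin 4. On PBS 3 and all leptin arrays the Arntl part of the score was a signal not above background. The labels do not give the hour at which livers were taken.

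With this score as a covariate the calls among the members changed. Pdk4 stood at -1.22 (limma adjusted p = 0.119) and Pdha1 at -0.458 (0.2), and neither was called. Pdk2 stood at -1.13 and was called (limma adjusted p = 0.0245), and so were the 3 Pdp2 probes, at -0.884 (0.0422), -1.23 (0.0177) and -0.988 (0.0434). The score nearly followed the groups, with PBS 3 and leptin 4 as the arrays that broke the pattern. Standard errors were 1.76 times as large at the median of all kept probes, 1.72 times for Pdk4 and 1.83 times for Pdha1. They were 1.43 times as large for Pdk2 and 1.14, 1.09 and 1.19 times for the 3 Pdp2 probes. The fitted differences moved as well, by little for Pdha1, towards 0 for Pdk4 and away from 0 for Pdk2. Those of the 3 Pdp2 probes moved down from 0.016, -0.175 and -0.043 without the score. Without both PBS 3 and leptin 4, and with no score, Pdk4 was at -1.94 (limma adjusted p = 0.000837) and Pdha1 at -0.418 (0.0471), both called, while Pdk2 was at -0.358 (0.189). Without them the 3 Pdp2 probes were at 0.277, 0.128 and 0.224, none called. The part of the clock genes in these results was not tested beyond this.

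**Figure D3:**
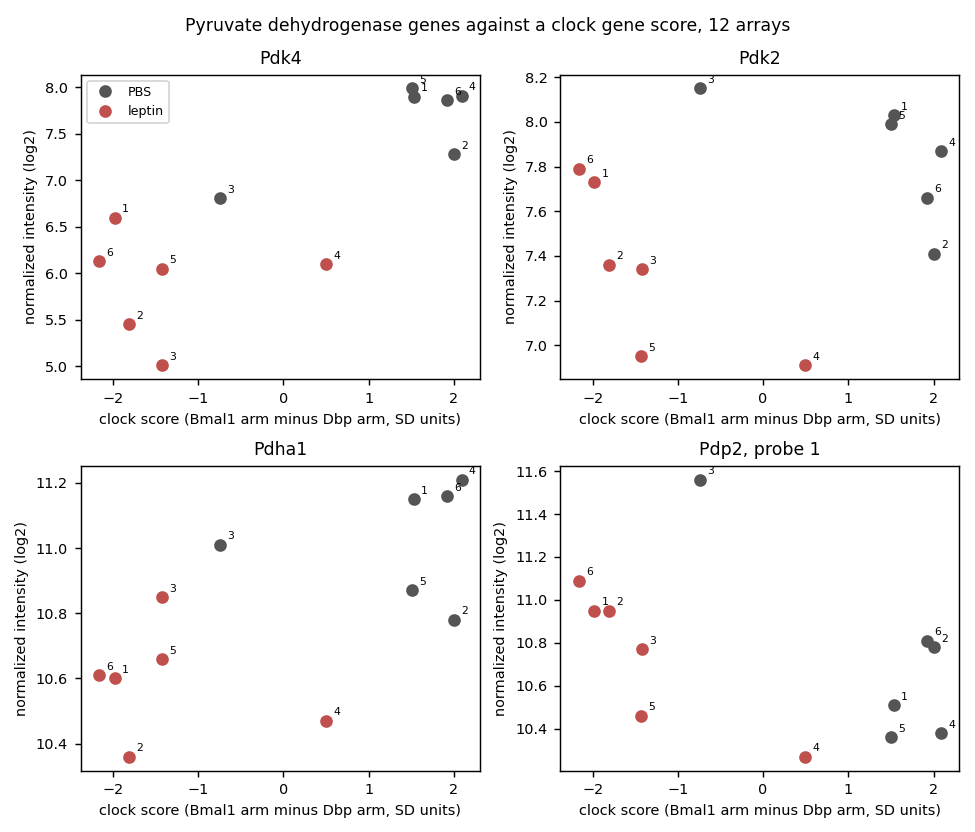
Normalized log2 intensity of 4 members against the clock score of each array (numbered points; Bmal1 arm minus Dbp arm, in SD units). PBS 3 at -0.741 and leptin 4 at 0.497 lie between the groups on the score; for Pdk4 they keep to their groups' side, while for Pdp2 they are the highest and the lowest point.

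Proteins that complete the complex were measured only in part. Dld, the E3 subunit, and Pdpr, which regulates the phosphatase, had log2 differences of -0.305 ± 0.160 and -0.217 ± 0.158 (SE, limma adjusted p = 0.202 and 0.364). Pdhx, Pdp1 and Pdha2 were detected on 0 arrays. Of 6 genes that build or attach lipoic acid, the cofactor of Dlat, 4 were tested and none was called, with a median log2 difference of -0.30, although 3 had an unadjusted limma p below 0.05. They included Mcat (-0.336, limma adjusted p = 0.0861) and the lipoic acid synthase Lias (-0.327, 0.0815), and Lias was called without PBS 3 (0.0404). Over all 8819 genes with 1 probe each, the median was 0.004, and 17.2% were called, 8.67% lower and 8.56% higher. An unadjusted limma p below 0.05 was reached by 32.1% of these genes.

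The related 2-oxoacid dehydrogenases, which share the E3 subunit and the lipoyl mechanism, were lower in 4 of 7 tested genes, with none higher and a median of -0.49. Dlst (log2 difference -0.768 ± 0.128, SE, limma adjusted p = 0.00164) and Ogdh (-0.597 ± 0.154, 0.0177) encode subunits of the 2-oxoglutarate complex. Dbt, the E2 subunit of the branched-chain complex (-0.488), and Ppm1k, the phosphatase that activates that complex (-0.512), fell too. Bckdk, the branched-chain kinase that corresponds to the Pdk genes, was at -0.012 ± 0.121 (limma adjusted p = 0.961). The Ppm1k call was lost without leptin 4 (limma adjusted p = 0.0543), leptin 5 (0.0639) or PBS 2 (0.05). It was also lost with no detection filter (0.0578), with a minimum fold of 1.2 (0.374) and without both PBS 3 and leptin 4 (0.0792). The Ogdh (0.225) and Dbt (0.329) calls were lost with that minimum fold.

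Genes listed under pyruvate supply and other fates, not all of which act on pyruvate itself, were lower in 5 of 11 tested. None was higher, and the median was -0.54. Cth, which releases 2-oxobutyrate and cysteine from cystathionine, fell by a log2 difference of -1.59 ± 0.33 (SE, limma adjusted p = 0.00606). Pck1, the PEP carboxykinase of gluconeogenesis, fell by -1.19 ± 0.14 (0.000266), and the alanine aminotransferase Gpt by -0.545 ± 0.125 (0.00986). Bsg, a chaperone of lactate and pyruvate transporters, fell by -0.858 ± 0.132 (limma adjusted p = 0.00102), and Ldha made up the count. The Bsg signals were dim, from 141.6 to 219.7, and without background subtraction, in the authors' deposited table, its log2 difference was -0.356. Pcx, which carboxylates pyruvate in competition with the complex, was at -0.335 ± 0.196 (0.255), and the pyruvate kinase Pklr at 0.36 ± 0.41 (0.584).

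Of 6 tested genes that use acetyl-CoA or make ketone bodies from it, Acat1, the mitochondrial acetoacetyl-CoA thiolase, fell by a log2 difference of -1.39 ± 0.20 (SE, limma adjusted p = 0.000713), with detection on 3 leptin arrays. Its signals were dim, from 127.3 to 266.2, and its log2 difference in the authors' deposited table was -0.563. The other 5 were not called, with citrate synthase, Cs, at -0.047 ± 0.118 and the citrate lyase Acly at 0.439 ± 0.214. The list's median was 0.21.

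Transcripts of 10 factors known to act on Pdk genes were tested and none was called, with a median of -0.10. Without adjustment 2 of the 10 passed a limma p of 0.05, and 32.1% of all 8819 genes did. Hif1a was at -0.42 ± 0.14 (SE, limma adjusted p = 0.0554) and was called without PBS 4 (0.0431). Ppara, the fatty acid receptor that induces Pdk4, was at -0.385 ± 0.308 (limma adjusted p = 0.411), and Foxo1, which induces Pdk4 when insulin is low, at 0.187 ± 0.272 (0.671). Transcript levels say nothing of the activity of these factors.

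Known target genes of these factors were set beside Pdk4. Of 9 tested PPARα targets, 6 fell and none rose, with a median log2 difference of -1.01. They were led by the omega-hydroxylase Cyp4a14 (-6.48, detected on 5 leptin arrays), the thioesterase Acot1 (-2.02), Angptl4 (-1.85), an inhibitor of lipoprotein lipase, and the carnitine carrier Slc25a20 (-1.16). Of 8 tested FoxO targets that insulin represses, Pck1 fell and 7 were not called, with a median of 0.05. Of 6 glucocorticoid receptor targets, the aminotransferase Tat (-2.02, detected on 5 leptin arrays) and Fkbp5 (-1.06) fell and Per1 rose, with a median of -0.12. Tat signals ran from 124.9 to 348, and its log2 difference in the authors' deposited table was -1.046. The Fkbp5 call was lost without leptin 3 (limma adjusted p = 0.0552) or leptin 5 (0.0578). It was also lost with no detection filter (0.0873), with a minimum fold of 1.2 (0.127) and without both PBS 3 and leptin 4 (0.0703). Of 5 tested HIF-1 targets, the glycolytic genes Pgk1 (-0.655) and Ldha (-0.537) fell and Vegfa rose (1.04). These lists were chosen with results of these data in view and share the arrays of Pdk4, so they are no independent evidence about it.

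**Figure D4:**
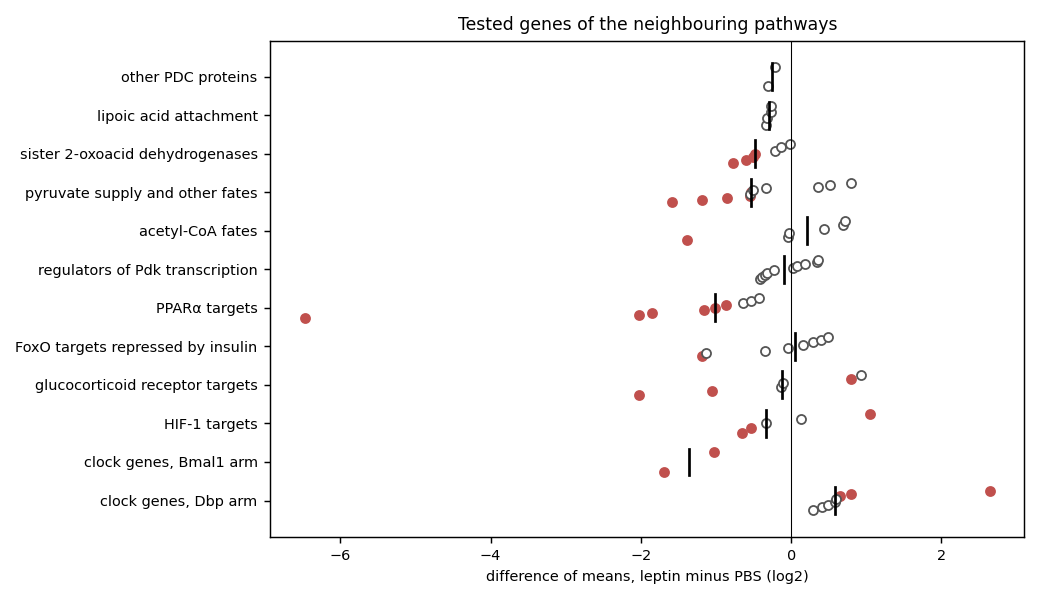
Difference of group means (leptin minus PBS, log2) of each tested gene in 12 neighbouring lists, 1 probe a gene; filled points passed an adjusted p of 0.05, and the upright bar is the list's median. Arntl of the Bmal1 arm is drawn at its fitted difference, although it was detected on 0 leptin arrays. The PPARα targets have the lowest median of the metabolic lists, -1.01, with 6 of 9 called lower.

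Calls among these neighbouring genes also changed with the clock score. Acot1 (-2.40, limma adjusted p = 0.106), Cth (-1.37, 0.176), Bsg (-0.64, 0.105), Dbt (-0.607, 0.11), Fkbp5 (-1.55, 0.0865), Pgk1 (-0.391, 0.268), Ldha (-0.232, 0.499) and Vegfa (0.774, 0.327) were not called with it. Hif1a was (-0.871, 0.032). Ogdh, Dlst, Ppm1k, Gpt, Pck1, Acat1, Cyp4a14, Angptl4, Slc25a20 and Tat kept their calls.

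Tissue markers were read beside the members because the RNA is from whole liver, where fewer cells of a type and less RNA per cell cannot be told apart. All 5 hepatocyte markers were tested, of which Alb was lower (-0.83), Serpina1a was higher (0.46) and 3 were not called. The Alb probe was dim, with signals from 153.1 to 276.3 against 37858.6 to 41929.9 for Apoa1. Its difference is therefore that of a weak probe, which may not report the level of albumin RNA and adds little to the sum. The summed linear level of the 5 markers, with the offset taken off, ran from 96660 to 113055 with PBS and from 103914 to 122650 with leptin. That sum came mainly from the very bright probes of Apoa1, Cyp2e1 and Ttr. Because signals were already equal in distribution between arrays, it is a limited guide to the amount of hepatocyte RNA. Of 5 tested Kupffer cell and macrophage markers, Clec4f was higher (0.97, limma adjusted p = 0.00276), all 5 differences were above 0, and the sum ran from 2865 to 5902 with PBS and from 4353 to 10675 with leptin. Stab2 of 3 tested endothelial markers (0.58, sum 3515 to 8159 with PBS and 5153 to 7760 with leptin) was higher. The lymphocyte marker Cd3e was detected on 0 PBS arrays and 5 leptin arrays, at least 1.04-fold higher with leptin. Its limma adjusted p of 0.00218 belongs to the fitted difference, and this bound was not tested either. None of 4 stellate cell markers was called, with 1 at an unadjusted limma p below 0.05, against 32.1% of all 8819 genes. The part of these cell types in the Pdk4 and Pdha1 differences was not tested. Muscle markers (Ckm, Actn2, Myh6 and Acta1) and fat cell markers (Adipoq, Plin1 and Lep), of tissues that also express Pdk4, were each detected on 0 arrays.

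Over all probes, 13159 to 14431 were detected per array. Pearson's r between arrays, across probes, was 0.946 to 0.984 for arrays of 1 group and 0.926 to 0.972 for arrays of different groups. No pair of arrays was near identical, the smallest median absolute log2 difference being 0.218.

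**Figure D5:**
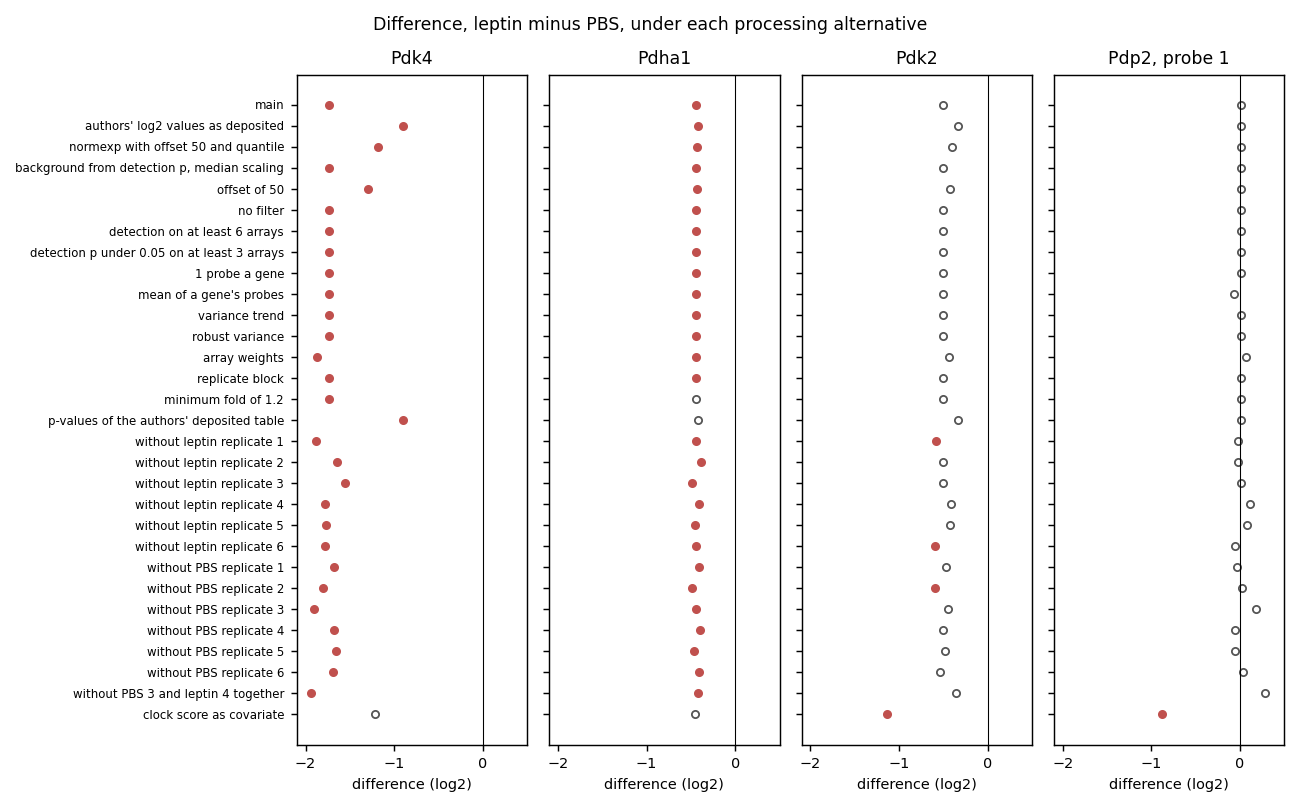
Log2 difference (leptin minus PBS) of 4 members under the main processing and each of 29 alternatives; filled points passed an adjusted p of 0.05. Pdk4 ran from -1.94 to -0.901 and was called in 28 of 29 alternatives, Pdha1 in 26, Pdk2 in 4 and the brightest Pdp2 probe in 1, the last with the clock score.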

How the data were processed

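Per the labels' protocols, liver RNA was amplified to biotin-labelled cRNA for Illumina Mouse-6 V2 BeadChips. The deposited intensity values are 1 signal per probe and array with a detection p-value, per the file headers. Although deposited as not normalized, signals of equal rank on the 12 arrays had a median range of 0 percent, so the intensity values as deposited were already equal in distribution. They had no background subtracted (lowest 95.9, median 118.9). The authors' deposited log2 values equalled log2 of these signals. A further deposited table, of Cyber-T results per the file headers, gives an unadjusted p-value and a log2 difference per probe.

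Signals were corrected with limma's neqc, with background estimated through the detection p-values, an offset of 16, quantile normalization and log2. The offset makes fold differences understate the change of dim genes. Of 45281 probes, 15062 with detection p below 0.01 on at least 3 arrays were fitted with lmFit and eBayes, with a two-sided p adjusted by Benjamini-Hochberg over all kept probes and a threshold of 0.05. Every member probe was reported, and lists used the kept probe of highest mean for each gene. In the GEO platform annotation 34885 probes had 1 symbol, 18 several and 10378 none here, and 34807 of the symbols were found in RefSeq by gene identifier.

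The fit was checked on simulated data. The members, lists, motifs and the clock score were chosen with earlier results of these data known. Named genes were all members, up to 4 called genes of each list by size (up to 2 where none was called), and the 5 genes closest to Pdk4. Further list members named beside these (Pcx, Pklr, Bckdk, Cs, Acly and Foxo1) were chosen after their values were seen. Same-numbered arrays deviated together for only some numbers (correlations of 0.454, 0.284 and 0.22 for numbers 1, 3 and 6, and -0.29 to 0.062 for the others), so the numbers were not taken to pair arrays. No slide or date is among the columns used here, so no batch was tested. Alternatives covered background, normalization, filters, probe rules, variance models, a minimum fold of 1.2, the authors' p-values, a replicate block, the clock score and leaving out each array. Tools were R 4.3.3, limma 3.58.1 and Python 3.11.15 with pandas 2.3.3.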

Additional observations from a re-analysis of the deposited data

Results flagged for a closer look

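In 8 of the 90 groups of 6 arrays examined, over 45 results, 1 array lay far from the other 5, with a gap to its nearest neighbour, as a share of the group's range, past Dixon's 95% critical value. Chance gives this in about 1 of 20 groups. Among the members, Pdk1 was low on PBS 2 at a log2 intensity of 8.26, against 8.80 to 9.11 on the other PBS arrays. Pdp2 was high on PBS 3 on 2 probes, at 9.92 against 8.52 to 9.03 and at 11.56 against 10.36 to 10.81. PBS 3 was also low for Arntl, at 4.84 against 6.33 to 6.69, high for Dbp, at 12.27 against 8.72 to 10.05, and low for Prpf4b, at 5.07 against 5.42 to 5.52. Of these, the Arntl and Prpf4b signals of PBS 3 were not above background. Leptin 4 had the highest Arntl value of its group, at 5.11 against 4.36 to 4.54, but Arntl was detected on 0 leptin arrays, so these are values among undetected signals. Leptin 4 was low for Hif1a, at 4.93, not above background, against 5.43 to 5.53.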

How the results depend on the processing

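The Pdk4 difference stayed below 0 under all 29 alternatives and lost its call only with the clock score, and the Pdha1 difference stayed below 0 and lost its call under 3. Of 15062 probes 2722 were called, against 1474 with 1 probe a gene, 1489 with the mean of a gene's probes, 633 with a minimum fold of 1.2, 1009 with the clock score and 2053 to 2753 without any 1 array. The first 2 of these settings tested fewer probes, and the minimum fold is a stricter test by design. The cause was not tested for the others. Of the member probes 2 were called, against 1 with the minimum fold, 1 by the p-values of the authors' deposited table, 4 with the clock score and 2 to 3 without any 1 array. Of 74 tested list genes 25 were called, against 16 with the minimum fold and 16 with the clock score. Calls lost with the minimum fold were those of Ogdh, Dbt, Ppm1k, Gpt, Ldha, Pgk1, Vegfa, Fkbp5 and Nr1d2. Signs turned only for members that were not called in the comparison of groups. Leaving out 1 array at a time spanned 0 for Pdk1 (-0.019 to 0.271), Dlat (-0.0525 to 0.126), Pdhb on ILMN_1247561 (-0.161 to 0.208), Pdp2 on ILMN_3134598 (-0.0578 to 0.182), ILMN_3057482 (-0.128 to 0.144) and ILMN_2477276 (-0.27 to 0.0218), and Zfp180 (-0.0843 to 0.0298). Without PBS 3 and leptin 4 together, Pdhb ILMN_1247561 was at -0.025 and Pdp2 at 0.128 and 0.224. The mean of its probes put Pdp2 at -0.0675 and array weights put ILMN_3057482 at 0.000331. With the clock score the sign turned for Pdk1 (-0.484), Dlat (-0.331), Pdp2 ILMN_3134598 (-0.884), Dbp (-0.126), which is part of the score, Dnajb6 (0.0247), Gin1 (0.174), Prpf4b (0.00124) and Zfp180 (0.00586). With a replicate block, although the numbers were not taken to pair the arrays, 2542 probes, 2 member probes and 29 list genes were called, Pdk4 at -1.73 (limma adjusted p = 0.000144), and for 2 of 6 numbers the array of the same number was the best match. Signal near background limits Pdk3, the second Pdk1 probe and the fourth Pdp2 probe, which were not tested.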
